A study of Mus musculus with 10 samples.

Results

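Cajal-Retzius neurons are among the earliest neurons of the mouse cortex, where they lie in the marginal zone under the pial surface. They arise mainly at the edges of the pallium, in the cortical hem, the septum and the pallial-subpallial border, and spread over the cortex by tangential migration. They secrete reelin, a large extracellular protein that binds the receptors VLDLR and ApoER2 on other cells, acts through the adaptor DAB1 and is needed for the layering of the cortex. Their gene set was followed here through 10 genes chosen as known Cajal-Retzius genes: Reln, Ndnf, Calb2, Cacna2d2, Lhx1, Lhx5, Ebf2, Ebf3, Nhlh2 and Trp73. All 10 were found among the 19938 genes that could be tested, each with 1 probe set.

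Expression was measured in forebrains of 10 mouse embryos at E12.5, of CD1/NMRI mixed background, with 1 microarray per embryo. The 5 embryos titled dtg came from transgenic mice in which the CaMKIIa promoter drives a constitutively active FoxO3, and the 5 titled stg are the controls. The labels spell out neither abbreviation, and do not give what transgene, if any, a control embryo carries and from which of the 2 dams each embryo came, so group and litter cannot be told apart. RNA came from 1 side of a forebrain that had been cut away from most of the thalamus. Values are log2 intensities as deposited, a difference of 1 being a doubling, and array medians lay between 5.36 and 5.39. Depth has no counterpart on arrays, and the number of arrays limits the precision.

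Of the telencephalon genes used to check the tissue label, 11 of 12 were measured. The cortical gene Emx1 averaged 7.34 ± 0.41 in stg and 6.97 ± 0.14 in dtg (SD, n = 5 each), and the cortical neuron gene Tbr1 lay between 8.43 and 8.98 in all embryos. The ventral genes of the list divided the controls. Dlx1, of ventral forebrain progenitors, read 9.37, 9.38, 6.86, 8.98 and 4.82 in stg embryos 1 to 5 and lay between 6.91 and 8.42 in dtg embryos. Dlx2 and Dlx5 likewise had their lowest control values in stg embryos 3 and 5 (6.37 and 5.11 for Dlx2, 6.19 and 5.11 for Dlx5), against 7.75 to 8.32 in the other controls. The LIM-homeodomain gene Isl1 was at 4.70 and 4.55 in stg embryos 3 and 5 and between 7.67 and 7.93 in the other controls, and Sim1, of the hypothalamus, at 4.57 and 4.03 against 6.48 to 6.88. The part of these 2 embryos in each comparison was not tested, and the counts over the members are also given without them. Over all genes, the array of stg embryo 5 stood apart. Its mean correlation with the other arrays was 0.985, against 0.992 to 0.993 for the others. It also had the lowest pan-neuronal mean (7.48, against 8.42 to 8.68 in the other controls) and the highest mesenchyme mean (7.98, against 6.06 to 7.01). The table gives no detection call, so whether the dimmer members (Ndnf, Calb2 and Trp73, near the middle of all genes by mean intensity) stood above background could not be judged.

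All 10 members had a higher mean in dtg than in stg forebrains, with a median log2 difference of 0.46. The median over all genes was -0.0038, and 48.1% of all genes were higher in dtg. No member passed an adjusted p of 0.05 over all genes in limma, a rule that 0.105% of all genes met. The adjusted p-values of the members ran from 0.0878 for Lhx5 to 0.979 for Cacna2d2. By the unadjusted limma p, 7 members lay below 0.05 with a higher mean, against 4.1% of all genes. In 3 members, Lhx5, Calb2 and Nhlh2, the lowest dtg embryo lay above the highest stg embryo, a pattern found in 0.978% of all genes. Without stg embryo 5 the median difference was 0.40, 7 members again had an unadjusted limma p below 0.05 (3.92% of all genes) and 3 again did not overlap, but Trp73 then stood below 0.05 in place of Reln (limma unadjusted p = 0.0449 and 0.0892), Lhx5 passed over all genes, and Cacna2d2 turned to -0.0078. Without stg embryos 3 and 5 the median difference was 0.38, and 7 members had an unadjusted limma p below 0.05, against 4.34% of all genes in that fit. Ebf2 then stood below 0.05 in place of Reln (limma unadjusted p = 0.00268 and 0.0917), 4 members did not overlap, no member passed over all genes (Lhx5 at 0.72, limma adjusted p = 0.0629), and Cacna2d2 was at -0.046. Leaving out embryos makes non-overlap easier to reach, and its share over all genes was counted only with all 10 embryos. The counts without overlap in these smaller sets therefore have no background beside them. The members had been chosen with earlier results of these arrays known, so these counts describe the list and test nothing about it. In bulk tissue, more cells of a type and more RNA per cell cannot be told apart.

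**Figure D1:**
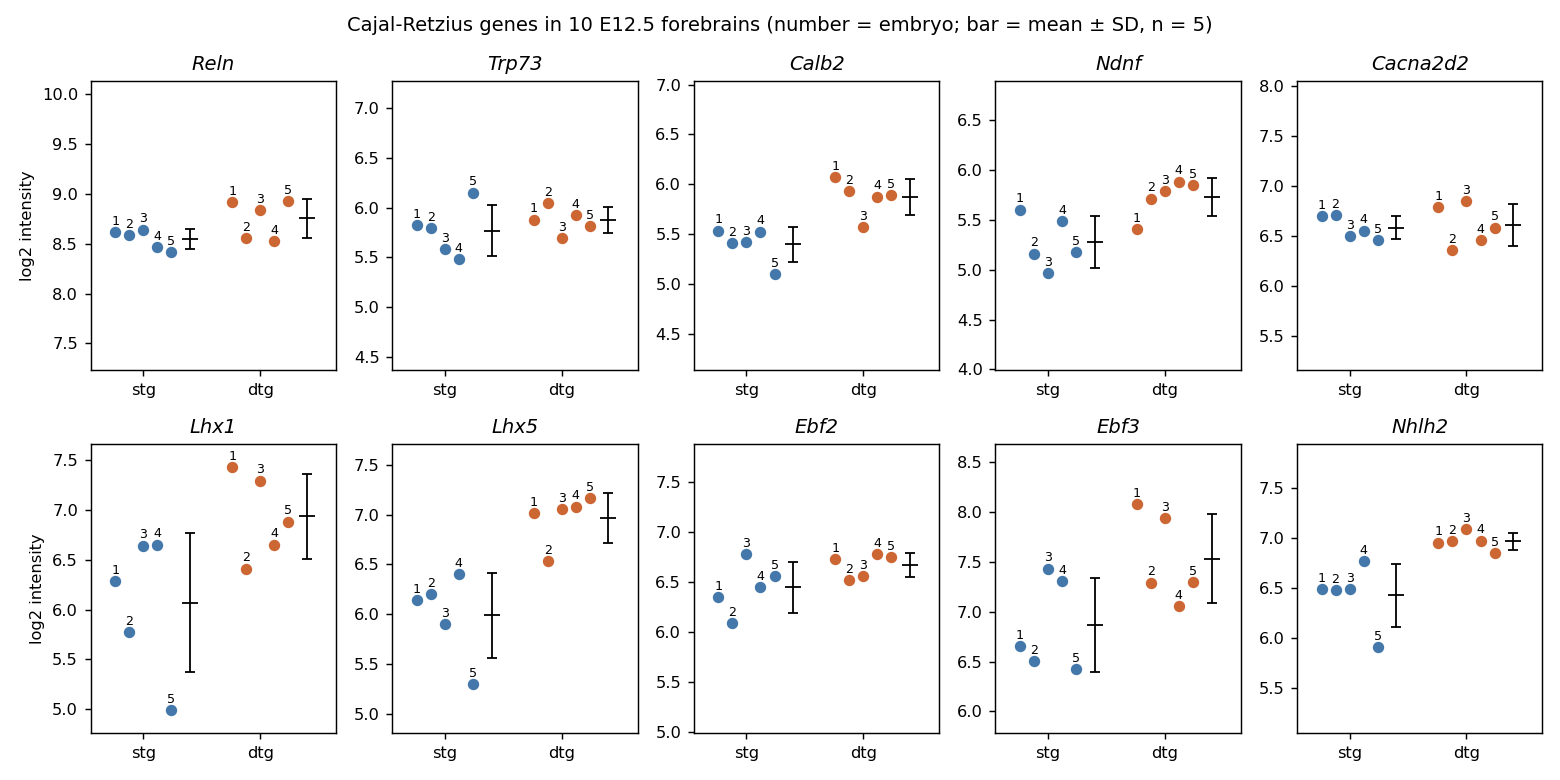
Log2 intensity of each member in 5 stg (blue) and 5 dtg (orange) forebrains, with the embryo number over each point and the mean ± SD (n = 5) as a black bar; every panel spans the same log2 range. Lhx5, Calb2 and Nhlh2 show no overlap between groups, while Lhx1 and Ebf3 spread widely within each group.

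Among the secreted products, Reln, which encodes reelin itself, differed little. In stg embryos 1 to 5 its values were 8.62, 8.59, 8.64, 8.47 and 8.41, and in dtg embryos 1 to 5 they were 8.91, 8.56, 8.84, 8.53 and 8.93. In all, 3 dtg embryos (1, 3 and 5) lay above every control, and dtg embryos 2 and 4 lay inside the control range. The log2 difference was 0.21 ± 0.091 (SE), with a 95% confidence interval of 0.0093 to 0.40 (limma adjusted p = 0.637; exact two-sided permutation p = 0.0952, n = 5 per group).

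Ndnf encodes a secreted neuron-derived factor that marks Cajal-Retzius cells and, later, layer 1 interneurons. Its values were 5.60, 5.16, 4.97, 5.49 and 5.18 in stg embryos 1 to 5. In dtg embryos 1 to 5 they were 5.41, 5.71, 5.78, 5.88 and 5.85. In all, 4 dtg embryos exceeded every control and dtg embryo 1 did not. The difference was 0.45 ± 0.12 (limma adjusted p = 0.324; exact permutation p = 0.0238, n = 5 per group).

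Of the calcium-related members, Calb2 separated the groups and Cacna2d2 did not. Calb2 encodes calretinin, a calcium-binding protein by which Cajal-Retzius cells are often stained. Its values were 5.54, 5.41, 5.42, 5.53 and 5.10 in stg embryos 1 to 5 and 6.07, 5.93, 5.57, 5.88 and 5.89 in dtg embryos 1 to 5. All dtg embryos lay above all controls, with a gap of 0.039 between dtg embryo 3 and stg embryo 1. The difference was 0.47 ± 0.10, or 1.39-fold (limma adjusted p = 0.156; exact permutation p = 0.00794, n = 5 per group, no smaller p being possible with 5 against 5). Cacna2d2, an auxiliary subunit of voltage-gated calcium channels, ran from 6.46 to 6.71 in stg and from 6.36 to 6.85 in dtg embryos. Its difference was 0.023, with a 95% confidence interval of -0.19 to 0.23 (limma adjusted p = 0.979).

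The LIM-homeodomain genes Lhx1 and Lhx5 encode related transcription factors of early-born neurons. Both are expressed in Cajal-Retzius cells and in parts of the diencephalon. Lhx5 had the largest difference of all members and the smallest p. Its values were 6.14, 6.20, 5.90, 6.41 and 5.30 in stg embryos 1 to 5, and 7.02, 6.53, 7.05, 7.08 and 7.16 in dtg embryos 1 to 5. The groups did not overlap, dtg embryo 2 being the lowest of its group and stg embryo 4 the highest of the controls. The difference was 0.98 ± 0.19, or 1.97-fold, with a 95% confidence interval of 0.57 to 1.38 (limma adjusted p = 0.0878; exact permutation p = 0.00794, n = 5 per group). By limma's p, Lhx5 ranked 47 of all genes tested. It passed the adjusted threshold without stg embryo 5 (0.81, limma adjusted p = 0.0389) and without stg embryo 4 (1.08, limma adjusted p = 0.0459). It also passed with array weights (0.90, limma adjusted p = 0.0483) and with the pan-neuronal mean as a covariate (0.75, limma adjusted p = 0.0158). That covariate was itself higher in dtg by 0.32, so it overlaps with the group term. In the other 16 alternatives Lhx5 did not pass. Its adjusted limma p was 0.272 with the replicate block, 0.246 without dtg embryo 5, 0.243 without dtg embryo 1 and 0.869 with the neighbouring-region covariate described below for all members.

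Lhx1 had a mean difference of similar size with a much wider spread. Its values were 6.28, 5.77, 6.64, 6.65 and 4.996 in stg embryos 1 to 5, and 7.43, 6.41, 7.29, 6.65 and 6.88 in dtg embryos 1 to 5. In all, 3 dtg embryos lay above every control, while dtg embryo 2 was below stg embryos 3 and 4 and dtg embryo 4 lay between them. The difference was 0.87 ± 0.30, with a 95% confidence interval of 0.20 to 1.53 (limma adjusted p = 0.515; exact permutation p = 0.0397, n = 5 per group). The pooled within-group SD was 0.58 for Lhx1, the widest of the members, against a median of 0.12 over all genes. Without stg embryo 5, whose Lhx1 value was the lowest, the Lhx1 difference was 0.60 (limma adjusted p = 0.606).

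Ebf2 and Ebf3 encode helix-loop-helix factors of the early B-cell factor family, which act in migrating and differentiating neurons. Ebf3 read 6.65, 6.50, 7.43, 7.30 and 6.42 in stg embryos 1 to 5, and 8.08, 7.29, 7.94, 7.05 and 7.30 in dtg embryos 1 to 5. Only dtg embryos 1 and 3 exceeded every control, and dtg embryos 2, 4 and 5 were below stg embryos 3 and 4. The Ebf3 difference was 0.67 ± 0.24 (limma adjusted p = 0.531; exact permutation p = 0.0794, n = 5 per group). Ebf2 ran from 6.09 to 6.78 in stg and from 6.52 to 6.78 in dtg embryos, and only dtg embryo 4 exceeded stg embryo 3. Its difference was 0.22 ± 0.11, with a 95% confidence interval of -0.022 to 0.47 (limma adjusted p = 0.704).

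Nhlh2 encodes a helix-loop-helix factor of newly formed neurons. It read 6.49, 6.48, 6.49, 6.77 and 5.90 in stg embryos 1 to 5, and 6.95, 6.97, 7.09, 6.97 and 6.85 in dtg embryos 1 to 5. The dtg values were tightly grouped (SD 0.085, against 0.32 in stg) and all lay above the controls, by a gap of 0.084. The difference was 0.54 ± 0.13, or 1.46-fold (limma adjusted p = 0.197; exact permutation p = 0.00794, n = 5 per group). Without stg embryo 5, whose Nhlh2 value was the lowest, the difference was 0.41 (limma adjusted p = 0.0594).

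Trp73, of the p53 family, is needed for the survival of Cajal-Retzius cells and is among their most selective markers in the embryonic cortex. Its values were 5.82, 5.79, 5.58, 5.49 and 6.15 in stg embryos 1 to 5, and 5.88, 6.05, 5.69, 5.93 and 5.81 in dtg embryos 1 to 5. The highest value of all belonged to stg embryo 5, and no dtg embryo exceeded it. The difference was 0.10 ± 0.11, with a 95% confidence interval of -0.14 to 0.35 (limma adjusted p = 0.887; exact permutation p = 0.444, n = 5 per group). Without stg embryo 5 it was 0.20 (limma adjusted p = 0.728).

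Trp73 has separate start sites for its full-length and its amino-terminally truncated products, which the single probe set did not tell apart. The starts differ in their surroundings, and they are shown with the starts of Reln, the ligand, and Lhx1, the most variable member. RefSeq promoter sequences of GRCm38.p6 were matched to 6 of the 10 members (Reln, Lhx1, Ebf3, Nhlh2, Cacna2d2 and Trp73). The 250 bases before a start are given 5′ to 3′ on the gene's strand, all 4 on the minus strand, with CpG dinucleotides in capitals.
Reln, chr5:22344706-22344955: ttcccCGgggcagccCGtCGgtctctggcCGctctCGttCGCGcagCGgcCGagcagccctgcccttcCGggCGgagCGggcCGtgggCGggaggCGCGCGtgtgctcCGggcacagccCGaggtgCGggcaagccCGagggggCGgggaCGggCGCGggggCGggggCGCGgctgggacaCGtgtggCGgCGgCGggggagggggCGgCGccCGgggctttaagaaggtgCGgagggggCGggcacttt
Lhx1, chr11:84525535-84525784: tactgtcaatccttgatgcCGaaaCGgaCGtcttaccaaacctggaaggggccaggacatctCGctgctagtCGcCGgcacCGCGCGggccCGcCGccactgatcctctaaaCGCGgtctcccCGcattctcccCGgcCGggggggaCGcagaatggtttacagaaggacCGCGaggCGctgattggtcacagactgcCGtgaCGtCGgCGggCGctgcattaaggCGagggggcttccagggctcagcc
Trp73, start of the long transcript, chr4:154139876-154140125: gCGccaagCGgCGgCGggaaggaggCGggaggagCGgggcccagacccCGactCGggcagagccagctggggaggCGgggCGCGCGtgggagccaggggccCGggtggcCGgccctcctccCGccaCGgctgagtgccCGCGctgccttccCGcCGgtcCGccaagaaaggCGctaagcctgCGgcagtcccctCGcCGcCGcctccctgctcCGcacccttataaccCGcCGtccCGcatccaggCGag
Trp73, internal start, chr4:154097174-154097423: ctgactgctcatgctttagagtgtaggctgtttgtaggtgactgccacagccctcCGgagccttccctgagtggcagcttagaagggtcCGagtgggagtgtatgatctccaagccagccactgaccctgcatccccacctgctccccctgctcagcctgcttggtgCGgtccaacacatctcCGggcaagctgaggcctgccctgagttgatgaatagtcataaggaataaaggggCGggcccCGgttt
The Reln stretch held 37 CpGs and the Lhx1 stretch 26. The start of the long Trp73 transcript held 31 and the internal start 6, the latter equal to the median of 6 over 32851 RefSeq promoters. Over the whole 300-base windows, the FOXO core motif GTAAACA, the homeodomain motif TAATTA and the palindromic EBF motif, each searched on both strands, matched none of the 7 windows of these 6 genes. Among all promoters, 3.65% held the first of these, 5.29% the second and 0.904% the third. The absence of a match says only that these letters are not in these windows.

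Whether members differed from Reln in their response was tested on the per-embryo value of member minus Reln. Lhx5 exceeded Reln in its group difference by 0.77 on the log2 scale, in 5 of 5 dtg embryos above all controls (exact two-sided permutation p = 0.00794, n = 5 per group; 0.0714 after Benjamini-Hochberg adjustment over the 9 contrasts). The other adjusted values ran from 0.167 to 0.952, so none of the 9 contrasts passed. With 5 embryos against 5, however, 0.00794 is the smallest exact permutation p possible, and 1 contrast alone at it adjusts to 0.0714. A single contrast therefore could not pass, and the lack of a pass does not decide whether Lhx5 differed from Reln. For Nhlh2 the extra difference was 0.33 (exact permutation p = 0.0635, n = 5 per group), and for Cacna2d2 it was -0.18 (exact permutation p = 0.0556, n = 5 per group).

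**Figure D2:**
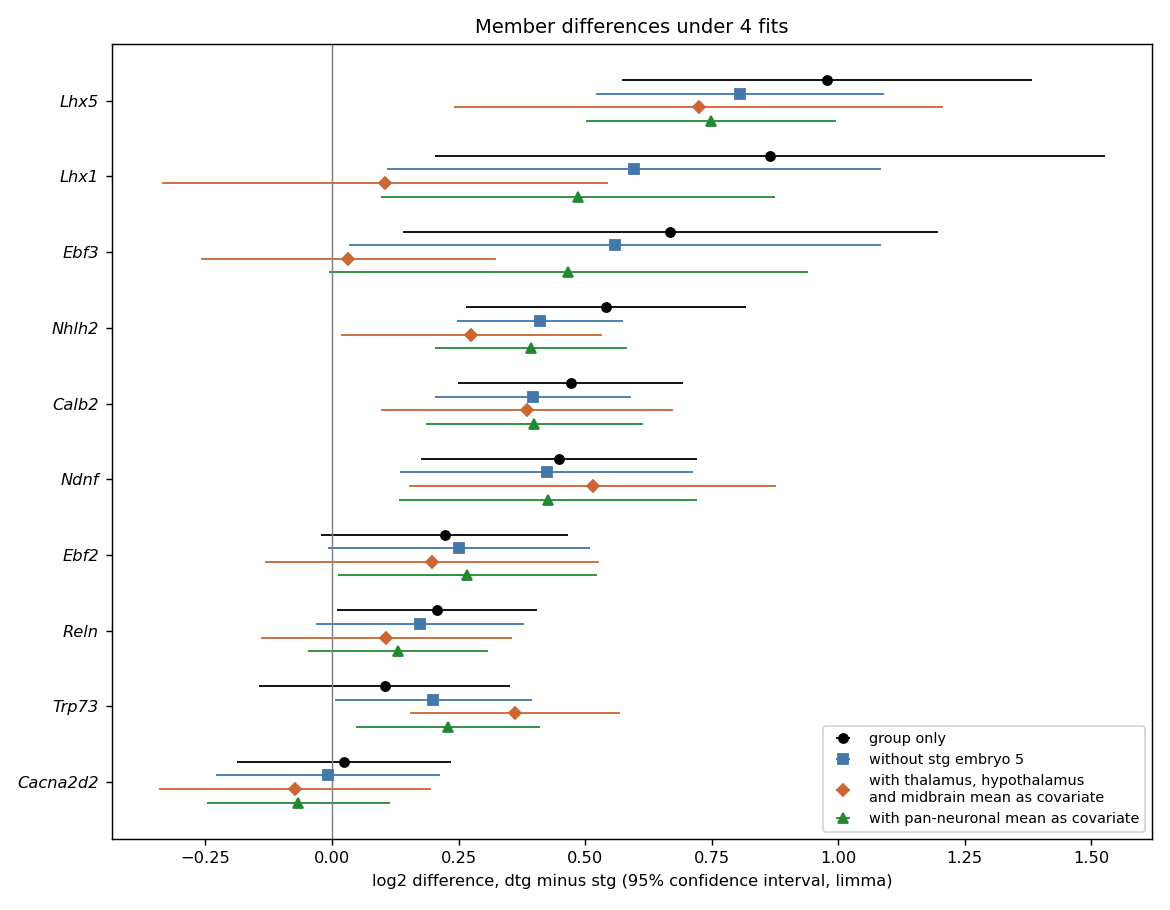
Log2 difference, dtg minus stg, with its 95% confidence interval for each member in limma fits with group only, without stg embryo 5, with the mean of the thalamus, hypothalamus and midbrain genes as a covariate, and with the pan-neuronal mean as a covariate. With the first covariate Lhx1 moves from 0.87 to 0.10, Ebf3 from 0.67 to 0.033, Lhx5 from 0.98 to 0.72 and Trp73 from 0.10 to 0.36.

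Several members are also expressed in the diencephalon, from which the forebrain was cut. Genes of the neighbouring regions were therefore measured as a list of 35 (11 thalamus, 12 hypothalamus and 12 midbrain genes). Their mean ran from 5.64 to 6.11 in dtg and from 5.16 to 5.86 in stg embryos, and 3 of 5 dtg embryos lay above all controls. Of the 11 thalamus genes 10 were higher in dtg, with a median of 0.41, and 5 of them had an unadjusted limma p below 0.05, beside 4.1% of all genes. The other regions differed less in the median. Of 12 hypothalamus genes 9 were higher, with a median of 0.063 and 2 below that p, and of 12 midbrain genes 9 were higher, with a median of 0.093 and 1 below it. The thalamic progenitor gene Olig3 averaged 7.35 ± 0.48 in dtg and 5.09 ± 1.31 in stg (SD, n = 5 each; limma adjusted p = 0.185). Tcf7l2, a Wnt effector strongly expressed in the thalamus, averaged 9.55 ± 0.76 and 7.81 ± 1.52 (limma adjusted p = 0.531). These genes divided the controls. In stg embryos 1 to 5 Tcf7l2 read 6.76, 6.69, 9.44, 9.50 and 6.65, and Olig3 4.13, 4.36, 5.78, 7.07 and 4.09. The dtg embryos ran from 8.45 to 10.27 for Tcf7l2 and from 6.65 to 7.95 for Olig3. The thalamus mean was 6.58 and 6.72 in stg embryos 3 and 4, and 5.74 to 5.76 in the other controls. In dtg embryos it ran from 6.23 to 7.17. The part of this split in the member differences was not tested.

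Within the groups, members followed this neighbouring-region mean to very different degrees. Each member was correlated with it over the 10 embryos after subtraction of the group means, with exact permutation within groups. The same was done for the pan-neuronal mean, which gave 20 relations for Benjamini-Hochberg adjustment. Ebf3 had the closest relation, with a Pearson r of 0.93 (exact permutation p = 0.00111, adjusted 0.0222) and a Spearman rho of 0.83 (exact permutation p = 0.00993, adjusted 0.0836). Leaving out stg embryos 4 and 5, the embryos farthest from the median, gave an r of 0.96. Lhx1 had an r of 0.88 (exact permutation p = 0.00375, adjusted 0.0352) and a rho of 0.79 (exact permutation p = 0.0209, adjusted 0.0836), with an r of 0.77 without those embryos. Trp73 ran the other way, with an r of -0.85 (exact permutation p = 0.00813, adjusted 0.037) and a rho of -0.79 (exact permutation p = 0.0192, adjusted 0.0836), and an r of -0.64 without them. Nhlh2 had an r of 0.77 (exact permutation p = 0.0111, adjusted 0.037) and a rho of 0.75 (exact permutation p = 0.0128, adjusted 0.0836), but its r was 0.42 without stg embryos 4 and 5, so it rested largely on them.

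Lhx5 had an r of 0.49 with the neighbouring-region mean (exact permutation p = 0.224, adjusted 0.321) and a rho of 0.18 (exact permutation p = 0.672, adjusted 0.686), and its r was -0.25 without stg embryos 4 and 5. The neighbouring-region mean pools regions with unlike patterns over the embryos. The hypothalamus mean was lowest in stg embryos 3 and 5 (5.35 and 5.23). Among the controls, the thalamus mean was highest in stg embryos 3 and 4 (6.58 and 6.72). How Lhx5 relates to each region alone was not tested. With the pan-neuronal mean the r of Lhx5 was 0.85 (exact permutation p = 0.0153, adjusted 0.0437) and its rho 0.65 (exact permutation p = 0.0813, adjusted 0.181). Leaving out stg embryo 5 and dtg embryo 4 left that r at 0.86. Lhx1 was about as close to the pan-neuronal mean as to the neighbouring-region mean, with an r of 0.85 (exact permutation p = 0.00993, adjusted 0.037) and a rho of 0.70 (exact permutation p = 0.0528, adjusted 0.151), and an r of 0.63 without the same 2 embryos. Nhlh2 had an r of 0.83 with the pan-neuronal mean (exact permutation p = 0.0483, adjusted 0.0967) and a rho of 0.66 (exact permutation p = 0.0463, adjusted 0.151), with an r of 0.47 without them. Trp73 had an r of -0.80 (exact permutation p = 0.0215, adjusted 0.052) and a rho of -0.65 (exact permutation p = 0.074, adjusted 0.181), with an r of -0.52 without them. Cacna2d2 also followed the pan-neuronal mean, with an r of 0.69 (exact permutation p = 0.00528, adjusted 0.0352), a rho of 0.70 (exact permutation p = 0.0201, adjusted 0.0836) and an r of 0.83 without the 2 embryos. For Reln the r was 0.64 (exact permutation p = 0.0234, adjusted 0.052) and the rho 0.41 (exact permutation p = 0.202, adjusted 0.336), with an r of 0.50 without them. No Spearman value passed after adjustment in this family.

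**Figure D3:**
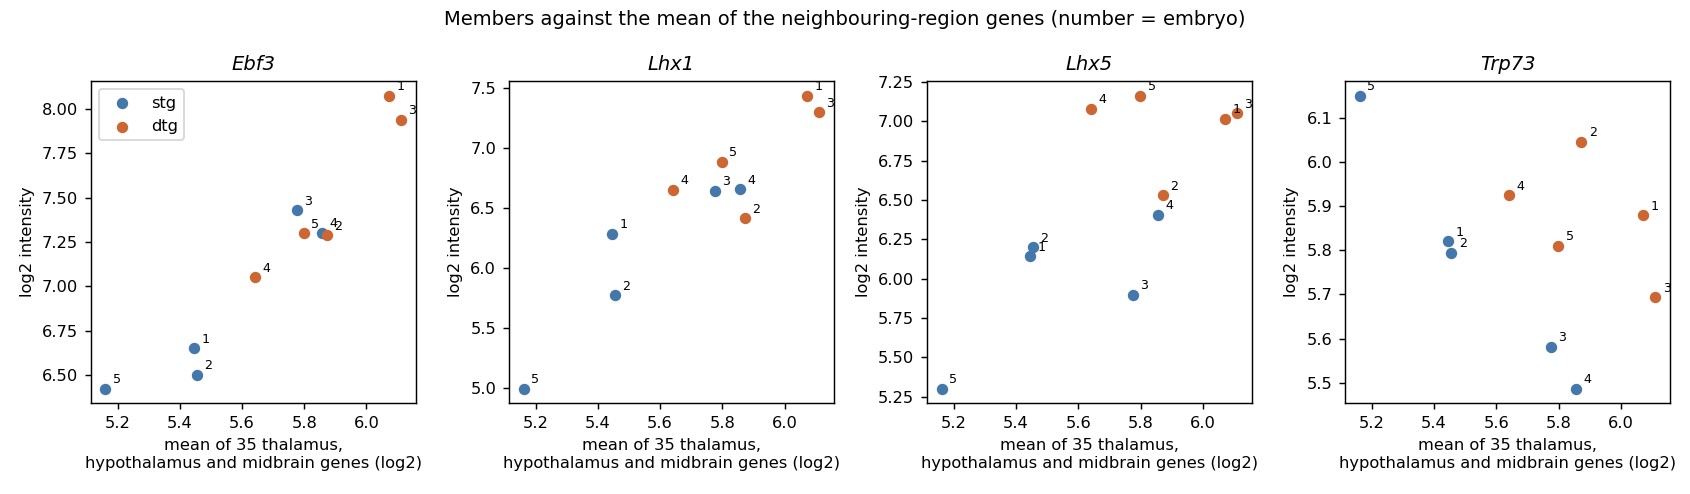
Log2 intensity of Ebf3, Lhx1, Lhx5 and Trp73 in each embryo against the mean log2 of 35 thalamus, hypothalamus and midbrain genes, with stg in blue, dtg in orange and the embryo number beside each point; the vertical scales differ. Ebf3 and Lhx1 climb with the list mean across both groups, Lhx5 separates the groups at similar list means, and Trp73 declines within each group.

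With the neighbouring-region mean as a covariate in limma, the median difference of the members was 0.24. The Ebf3 difference was then 0.033 and that of Lhx1 0.10 (limma unadjusted p = 0.81 and 0.611). Those of Lhx5, Ndnf and Calb2 were 0.72, 0.51 and 0.39 (limma unadjusted p = 0.00693, 0.00945 and 0.0133), and that of Nhlh2 was 0.28 (limma unadjusted p = 0.0387). The Reln difference was 0.11. The Trp73 difference was 0.36, with a 95% confidence interval of 0.15 to 0.57 (limma unadjusted p = 0.00271). No member passed over all genes in this fit, in which the lowest adjusted p of a member was 0.659, for Trp73. The covariate mean itself was higher in dtg by 0.36, so it overlaps with the group term, and an unadjusted limma p below 0.05 with a higher mean was found for 5 members, against 2.62% of all genes in that fit.

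The pan-neuronal mean of 15 genes was 8.68 ± 0.28 in dtg and 8.37 ± 0.51 in stg embryos (SD, n = 5 each). Of these genes 14 were higher in dtg, with a median of 0.34, and none had an unadjusted limma p below 0.05. With the pan-neuronal mean as a covariate, Reln was at 0.13, Lhx1 at 0.49, Ebf3 at 0.47, Nhlh2 at 0.39, Calb2 at 0.40 and Ndnf at 0.43. Lhx5 was at 0.75, Trp73 at 0.23, Ebf2 at 0.27 and Cacna2d2 at -0.067. The pan-neuronal mean was itself higher in dtg by 0.32, so this covariate too overlaps with the group term. An unadjusted limma p below 0.05 with a higher mean was found for 7 members, against 4.66% of all genes in that fit. Trp73 and Ebf2 stood below 0.05 in place of Reln and Ebf3 (limma unadjusted p = 0.0174, 0.042, 0.137 and 0.0527). Markers of the mesenchyme over the brain, where the pial surface lies next to Cajal-Retzius cells, had a mean from 6.33 to 7.08 in dtg and from 6.06 to 7.98 in stg, and their part in the results was not tested. Radial glia genes had means from 8.89 to 9.03 in dtg and from 8.97 to 9.03 in stg. Of the choroid plexus genes 5 of 6 were higher in dtg, with Otx2, also expressed in hem and thalamus, at 0.87 ± 0.23 without overlap between groups. Of the endothelial genes 2 of 6 and of the erythroid genes 1 of 5 were higher.

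Of 11 further genes of Cajal-Retzius cells, 10 were measured, of which 8 were higher in dtg, with a median of 0.22. No gene passed over all genes (lowest limma adjusted p = 0.297), and 5 had an unadjusted limma p below 0.05, all higher, beside 4.1% of all genes. The nuclear receptor gene Nr2f2, also known from ventral and caudal forebrain, was higher by 0.59 ± 0.16 and its groups did not overlap, with dtg embryos from 9.656 to 9.995 and controls from 8.59 to 9.54. Cxcr4, the chemokine receptor that keeps Cajal-Retzius cells under the meninges, was higher by 0.30 ± 0.098. It lay between 8.38 and 8.43 in all dtg embryos, above the control range of 7.80 to 8.32. The vesicular glutamate transporter gene Slc17a6, present in Cajal-Retzius and in diencephalic neurons, was higher by 0.53 ± 0.16, and Zic1, a zinc-finger gene of the septum and hem, by 0.37 ± 0.13. The other CXCL12 receptor, Ackr3, differed by 0.0040, Tbr1 by -0.068 and Nhlh1, the paralog of Nhlh2, by 0.066.

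The genes that receive the reelin signal had a median close to 0 and no common direction. All 16 listed receptor and signalling genes were measured, 9 higher and 7 lower in dtg, with a median of 0.0065 and none with an unadjusted limma p below 0.05. The receptor gene Vldlr was at 0.31, with a 95% confidence interval of -0.0030 to 0.63, and the smallest p of the list (limma adjusted p = 0.667). The other receptor gene, Lrp8, which encodes ApoER2, was at 0.035 with an interval of -0.19 to 0.26. The adaptor gene Dab1 was at -0.0024 with an interval of -0.13 to 0.13. Rap1a, a small GTPase downstream of DAB1, was at -0.21 and the integrin gene Itgb1 at -0.13.

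**Figure D4:**
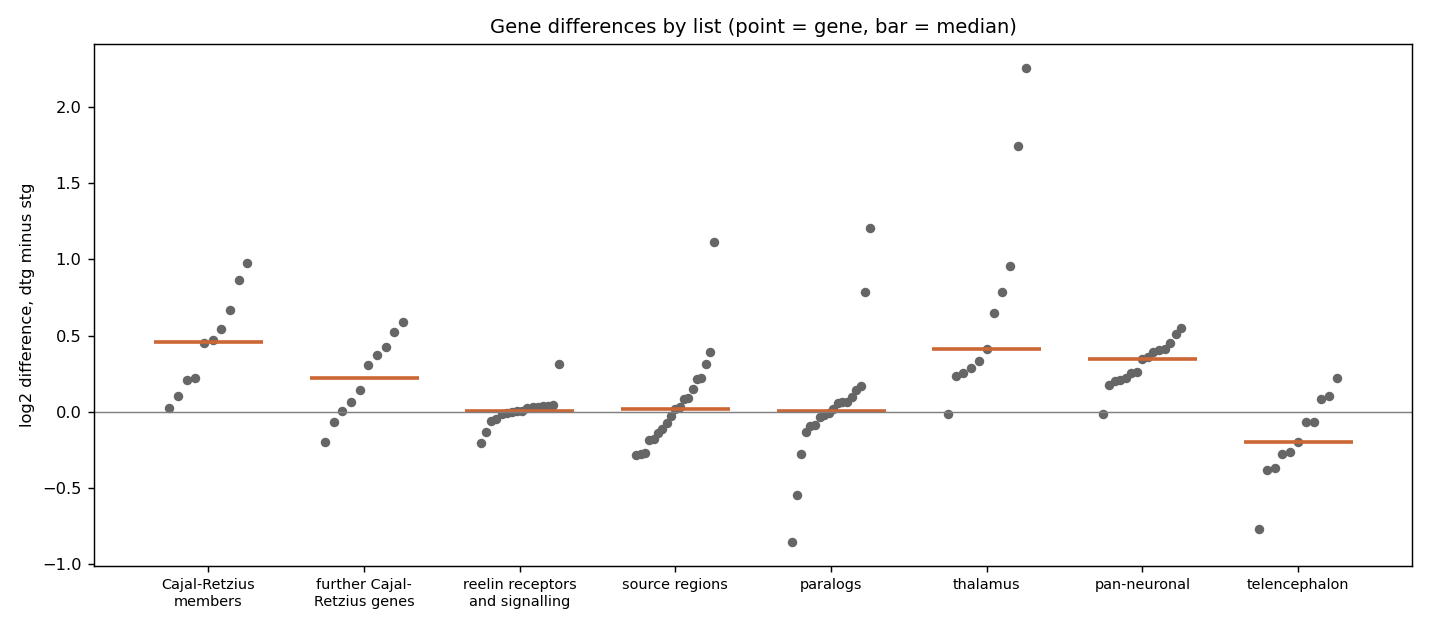
Log2 difference, dtg minus stg, of every measured gene in 8 lists, sorted within each list, with the list median as a bar. The 10 members all lie above 0 with a median of 0.46, the reelin receptors and signalling genes run from -0.21 to 0.31, and the thalamus genes reach 2.26. Of the 15 pan-neuronal genes 14 lie above 0, with a median of 0.34.

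Genes of the regions that produce Cajal-Retzius cells, or that limit their number, went both ways, with 10 of 19 measured genes higher and a median of 0.017. Dbx1, which marks progenitors of the septum, the pallial-subpallial border and the thalamus, averaged 7.71 ± 0.21 in dtg and 6.59 ± 0.75 in stg embryos (SD, n = 5 each) without overlap (limma adjusted p = 0.25). Pax6, a factor of cortical progenitors, was higher by 0.22 ± 0.064 and Rspo3, a Wnt enhancer of the hem, by 0.39 ± 0.18. Wnt2b, a ligand of the hem, was at -0.27, with all dtg embryos under all controls (limma adjusted p = 0.51). None of the 19 passed over all genes, and 3 had an unadjusted limma p below 0.05 with a higher and 1 with a lower mean, beside 4.1% and 3.48% of all genes.

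Paralogs of the members showed no common direction, with 9 of 18 measured genes higher and a median of 0.0050. Lhx9, a LIM-homeodomain gene of the thalamus, was higher by 0.79 ± 0.25, while Lhx8 and Lhx6, LIM-homeodomain genes of the ventral telencephalon, were at -0.85 and -0.54 (limma adjusted p = 0.443, 0.642 and 0.704). These negative values rested on stg embryos 1, 2 and 4. Lhx6 read 6.53, 6.65 and 6.40 in them and 5.26 and 5.13 in stg embryos 3 and 5, below the dtg range of 5.40 to 5.55. Lhx8 read 6.72, 6.49 and 6.31 in them and 4.90 and 4.56 in stg embryos 3 and 5, with dtg embryos from 4.61 to 5.28. Ebf4 was at -0.14 without overlap between groups (limma adjusted p = 0.562). Counting both directions, 319 of all 19938 genes did not overlap. Among the paralogs, 1 had an unadjusted limma p below 0.05 with a higher and 2 with a lower mean. Over all genes these shares were 4.1% and 3.48%. Of 10 genes for cofactors of LIM-homeodomain proteins, 4 were higher and 6 lower. The smallest p-values there were those of Ssbp3 at 0.18 and Ldb2 at 0.19. These 2 alone had an unadjusted limma p below 0.05, both higher, beside 4.1% of all genes. In the telencephalon list 8 of 11 genes were lower in dtg, with a median of -0.20. Its smallest p was that of Neurod6, a gene of cortical projection neurons, at -0.77 ± 0.15 without overlap between groups (limma adjusted p = 0.0867).

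The genes whose pattern over the embryos was most like that of Reln, after subtraction of group means, were Cyp2u1, Vmn1r208, Fam160b1, Syn2 and Ppp2r2c. Their Pearson r with Reln ran from 0.93 to 0.94 and their Spearman rho from 0.81 to 0.94 over 10 embryos. For Lhx5 they were Tagln3, Mir127, Lrch2, Riok3 and Ahsa2, with r from 0.96 to 0.98 and rho from 0.82 to 0.95. No member was among the 5 nearest genes of either, and these are the top values among all genes, so such r values describe the ranking only.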

How the data were processed

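Total RNA from 1 side of each forebrain was hybridized to Affymetrix arrays after sense-strand labelling with biotin, per the labels' protocols. The authors deposited log2 intensities for 35556 probe sets, for which the submitters' processing notes name Affymetrix Expression Console; its version, algorithm and settings are not given in the sources used here. Near-equal medians show that arrays had been normalized, and the values were used as they stand.

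Of the probe sets, 21789 named 1 gene in the platform's gene table, 1621 several and 12146 none; symbols were updated through gene identifiers with RefSeq (GRCm38.p6). For each gene the brightest probe set over the 10 arrays was kept. Groups were taken from the sample titles. The labels name embryos but no litter for each, so p-values cover the spread between embryos with litter unknown. The dtg and stg groups were tested in R 4.3.3 with limma 3.58.1 (group only, two-sided; p-values adjusted by Benjamini-Hochberg over all genes and called below 0.05) and single values with exact permutation over 252 assignments (scipy 1.17.1), whose smallest two-sided p is 0.00794. The limma script was tested on simulated data. Members, lists and tests were chosen with earlier results of these data known.

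All members were named; of each further list at most the 4 genes with the smallest p, plus Tbr1, Ackr3, Nhlh1, Lrp8, Dab1, Dlx1, Dlx2, Dlx5, Isl1 and Lhx6, which were chosen after values were seen. For Reln and Lhx5 the 5 most correlated genes were named, skipping clone names. Alternatives were the replicate number as a block, omission of each embryo, array weights, robust variances with a trend, centring on medians, quantile normalization, averaged probe sets, a filter at the 40th percentile of mean intensity, 2 covariates and, chosen after seeing the data, omission of stg embryos 3 and 5 together. The labels do not say that the numbers pair embryos, and deviations of same-numbered embryos correlated from -0.25 to 0.24. Numbers were therefore not taken as pairs. With the number as a block, the SE fell for some members (Lhx1 from 0.30 to 0.23). For others it rose (Lhx5 from 0.186 to 0.195). Some listed genes are not reported here.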

Additional observations from a re-analysis of the deposited data

Results flagged for a closer look

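A value was set apart where its gap to the nearest embryo of its group was large beside the group's range by Dixon's ratio, which chance alone exceeds in about 1 of 20 groups; 28 groups of 5 embryos were examined. The Calb2 value of 5.10 in stg embryo 5 lay below the other controls, and without that embryo the Calb2 difference was 0.40, against 0.47 with it. The Lhx5 value of 6.53 in dtg embryo 2 lay below the other dtg embryos, and without that embryo the Lhx5 difference was 1.09. The pan-neuronal mean of 7.48 in stg embryo 5 lay below the other controls.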

How the results depend on the processing

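The 20 alternatives gave 200 values for single members. Of these, 190 kept their direction and their side of the threshold, 4 values of Lhx5 newly passed it, and 6 values of Cacna2d2 turned negative. Its values ran from -0.038 to 0.085 over the fits that left out 1 embryo and were negative without dtg embryo 1, without dtg embryo 3 and without stg embryo 5 (-0.022, -0.038 and -0.0078). Cacna2d2 was at -0.073 with the neighbouring-region covariate, at -0.067 with the pan-neuronal covariate and at -0.046 without stg embryos 3 and 5, an alternative added after the data were seen. Over fits that left out 1 embryo the median member difference stayed between 0.40 and 0.52, the count of members with an unadjusted limma p below 0.05 between 6 and 8 (3.07% to 4.72% of all genes), and the count without overlap between 3 and 4. For that last count the share over all genes was not computed in these fits, and non-overlap is easier to reach with fewer embryos. The median member difference was 0.24 with the neighbouring-region covariate. The number of genes called over all genes was 21. It was 7 to 58 when 1 embryo was left out, 2 with the replicate block, 39 with array weights, 44 without stg embryos 3 and 5, 7 with the neighbouring-region and 94 with the pan-neuronal covariate; the cause was not tested. With the replicate block the Lhx5 difference stayed at 0.98 (limma adjusted p = 0.272). Its SE was 0.195, against 0.186 with group only, and fewer residual degrees of freedom were left. What raised the p was not tested. In 0 of 5 cases was the same-numbered control the one most like a dtg embryo. None of the 9 contrasts with Reln passed in any fit run for them. A single contrast could not have passed in any of these fits, the smallest possible p being too large, so this says nothing on how stable the contrasts are. The number of arrays and the unknown background of dim probe sets limit what differences could be seen.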
